A study of Mus musculus with 6 samples.

Results

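The albumin gene cluster of the mouse holds Alb, Afp and Afm, and its accessible sites were followed here in fasted and fed liver. All hotspots of the 6 libraries that shared at least 1 bp were merged into union regions, and the members are those that overlap mm9 chr5:90850000-90990000, a window of 140 kb. The choice used position only. It gave 18 regions of 75169 in all, numbered here as sites 1 to 18 in the order of their coordinates.

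The livers came from C57BL/6 mice, an inbred laboratory strain kept on a 12-hr light and dark cycle. The 3 fasted libraries are from mice without food for 24 h and the 3 fed libraries from mice with food at will, and no other treatment or allele is named for either group. Whole liver was taken at 6:00 in the morning, and its nuclei were digested with DNase I, an enzyme that cuts DNA where chromatin is open. A hotspot is a stretch with a local excess of sequenced tags and marks accessible DNA such as a promoter or an enhancer. Replicates are numbered in the labels with no word on whether each is its own animal, and the p-values therefore reflect variation among these libraries that may be technical.

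Albumin, the product of Alb, is the main protein of blood plasma and carries fatty acids, bile pigments and hormones. Afp encodes alpha-fetoprotein, its counterpart in the yolk sac and fetal liver, which is shut off in the mouse liver soon after birth. Afm encodes afamin, a plasma glycoprotein that binds vitamin E. The genes arose by duplication, are read in the same direction and are driven in hepatocytes by factors of the HNF1, FOXA, C/EBP and HNF4 families. In mouse, enhancers upstream of Alb and between Alb and Afp are known from work with reporter genes. In the RefSeq gene table (GRCm38.p6) the protein-coding order is Ankrd17, Alb, Afp, Afm, Albfm1, Rassf6. That build differs from the mm9 coordinates of the hotspots, so no site was assigned to a start site or an enhancer, and markers of other liver cells were not analysed here.

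The promoters of the 3 genes are shown because they are the best known control sequences of the cluster. Each is the 250 bases before the RefSeq start on the plus strand of chromosome 5 (GRCm38.p6), written 5′ to 3′. Capitals mark GTTAAT, the first arm of the HNF1 consensus, CCAAT, and TATAAA, on either strand.
Alb: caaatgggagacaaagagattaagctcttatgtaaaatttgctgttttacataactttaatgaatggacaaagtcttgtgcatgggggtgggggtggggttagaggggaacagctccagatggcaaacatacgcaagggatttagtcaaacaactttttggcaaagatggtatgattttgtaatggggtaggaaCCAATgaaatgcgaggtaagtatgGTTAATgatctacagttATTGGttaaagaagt
Afp: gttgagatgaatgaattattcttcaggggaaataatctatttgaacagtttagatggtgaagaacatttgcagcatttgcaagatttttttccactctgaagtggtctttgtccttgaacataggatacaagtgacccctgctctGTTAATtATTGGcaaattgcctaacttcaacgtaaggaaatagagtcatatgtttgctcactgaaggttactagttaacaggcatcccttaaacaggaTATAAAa
Afm: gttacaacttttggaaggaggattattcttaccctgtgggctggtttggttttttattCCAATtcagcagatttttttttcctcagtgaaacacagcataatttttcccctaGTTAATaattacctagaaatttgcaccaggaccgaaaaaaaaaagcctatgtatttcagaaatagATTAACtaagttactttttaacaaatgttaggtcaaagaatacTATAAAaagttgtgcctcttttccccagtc

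All 3 promoters held GTTAAT, which 6.47% of 32544 RefSeq promoters hold in the same 250 bases on either strand. It lay at -32 to -27 from the RefSeq start in Alb and at -105 to -100 in Afp. Afm had it at -138 to -133 and, on the other strand, at -73 to -68. The full HNF1 consensus, both arms with any base between them, was in none of the 3 and in 3 promoters of all. CCAAT was in all 3 (33.8% of promoters). TATAAA was in Afp at -7 to -2 and in Afm at -30 to -25, and not in Alb (12.3% of promoters). All positions count from the RefSeq start, which may differ from the base where transcription begins. Other forms of the TATA element and bases past that start were not searched, so Alb may hold one there.

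Among the other letters searched on both strands, TGTTTGC, a variant of the FOXA element, was in Alb and Afp (4.31% of promoters). TTGNNNAA, the loose C/EBP form, was in all 3 (33.3%), and in Alb and Afp 1 of its matches shared bases with a CCAAT match. The strict C/EBP palindrome TTGCGCAA (0.166%), the FOXA form TGTTTAC (3.17%) and the HNF4 form CAAAGTCCA (0.387%) were in none. These are matches of letters, not bound sites.

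Of the 18 sites, 13 were called in all 6 libraries (72.2%, against 49.3% of all union regions). The other 5 were called in fewer libraries. The centres of sites 1 to 15 lay within 64.8 kb of the low end of the window, with gaps of at most 7.44 kb between neighbours. A stretch of 32.0 kb without any hotspot then separated site 15 (90914484 to 90915166) from site 16 (90947205 to 90948264), and another of 33.0 kb separated site 16 from site 17 (90981300 to 90981979). Shared sites numbered 9.29 per 100 kb of the window. The windows of the same length on either side held 2.86 per 100 kb (lower coordinates) and 3.57 per 100 kb (higher coordinates). Members were left out of these windows, so site 18, which lies across the window end, was counted for the cluster only.

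**Figure D1:**
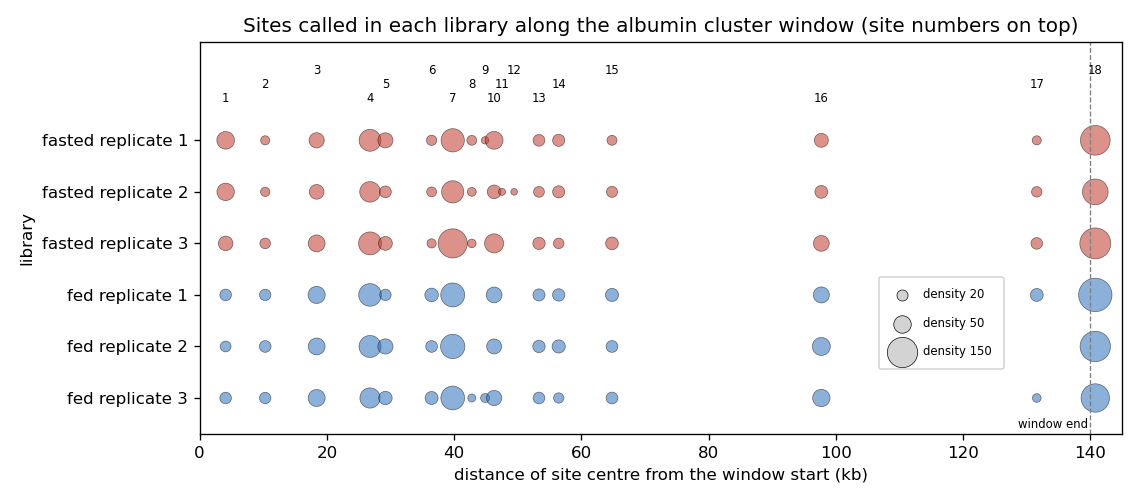
Sites called in each library, by distance of the site centre from the window start in kb; each circle is a called site, its area is proportional to the maximum tag density, and rows are the 3 fasted (red) and 3 fed (blue) libraries. Sites 1 to 15 crowd the low end, the stretches on both sides of site 16 are empty in all 6 libraries, and site 18 lies across the window end.

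The value of a site in a library is its highest maximum tag density, in the authors' units. Within a library every maximum was a whole multiple of 1 step (100% within 0.05 step). If 1 step is 1 tag, the libraries ranged from 1.24 to 1.90 times (fasted) and from 1.00 to 1.64 times (fed) the depth of the shallowest. Libraries held 49682 to 63476 hotspots (fasted) and 50990 to 63105 hotspots (fed). The site values then rest on 32 to 577 tags, and the weaker sites carry the larger counting error.

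The strongest site was site 18 (90989341 to 90992299), which reaches past the end of the window. Its centre, 140.8 kb from the window start, lies beyond that end, so more of the site is outside than inside. Where in the site its maximum lies was not analysed here, and it may be outside the window. It had densities of 144, 108 and 157 in fasted replicates 1 to 3, against 182, 151 and 132 in fed replicates 1 to 3. The groups overlapped. With a mean of 146 over the 6 libraries it ranked 796 of 37044 shared regions, in the top 2.15%. It was called as 1 broad hotspot of 2532 to 2932 bp in each library, against a median width of 833 bp over the 95 hotspots of the window.

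Site 7 (90889263 to 90890304) came second, with a mean of 98.6 and a place in the top 7.01% of shared regions. Its densities were 88.8, 80.9 and 139 in the fasted libraries and 93.8, 96.7 and 92.2 in the fed libraries. The fed libraries were close together, and the fasted ones spread on both sides of them. Fasted minus fed, the log2 fold change stood at 0.16 (SE 0.15, 95% interval -0.16 to 0.48, adjusted p = 0.557, limma).

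Site 4 (90876236 to 90877326), the third, had 78.3, 69.3 and 86.0 in the fasted libraries and 84.2, 79.1 and 67.1 in the fed libraries. These ranges were nearly the same, and the site averaged 77.8 ± 8.36 in fasted and 76.8 ± 8.80 in fed livers (SD, n = 3 each). Site 3 (90867982 to 90868794) followed with 38.0, 35.3 and 46.6 in the fasted libraries and 48.2, 46.5 and 47.1 in the fed libraries. Site 10 (90895580 to 90896995) had 51.9, 30.8 and 59.6 in the fasted libraries and 40.8, 36.7 and 38.2 in the fed libraries. Both sites stood above 70% of all shared regions, at percentiles of 72.7 for site 3 and 72.3 for site 10.

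In order of mean density over the 6 libraries the shared sites ran 18, 7, 4, 3, 10, 16, 1, 5, 13, 14, 15, 6 and 2. Site 4 stood above site 3 with no overlap of their ranges over libraries, and the other 11 of 12 neighbouring pairs in the order overlapped. Even so, site 18 was above site 7, and site 7 above site 4, in 6 of 6 libraries. From site 3 downward the order changed between libraries. The lowest, site 2, averaged 18.6, and 8 of the 13 stood above the middle of all shared regions.

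**Figure D2:**
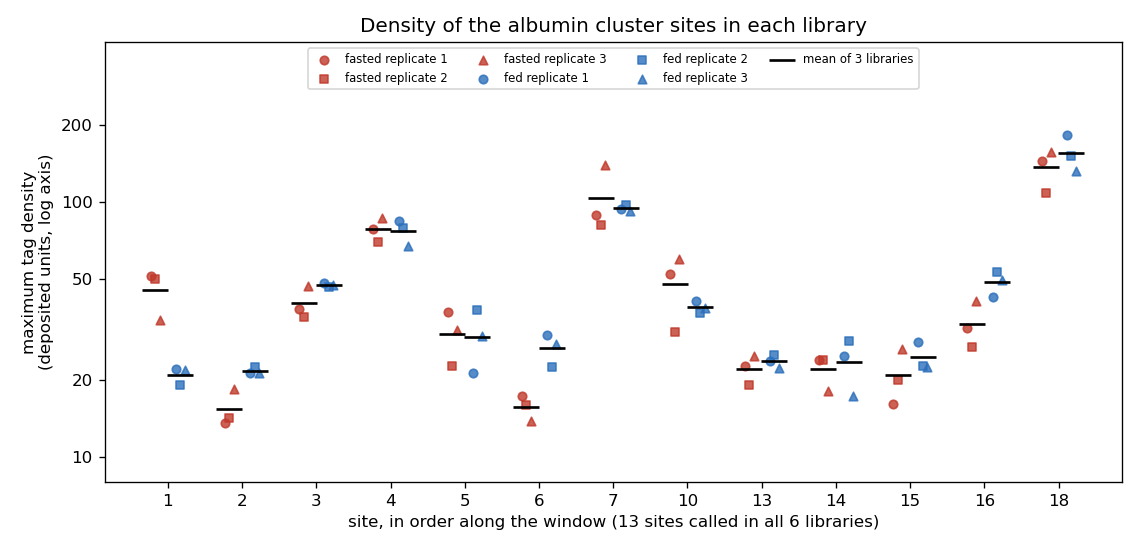
Maximum tag density (deposited units, log axis) of the 13 sites called in all 6 libraries; each point is a library (red, fasted; blue, fed) and black bars are means of 3. Sites 18, 7 and 4 stand highest in both groups, and at site 1 the fasted libraries lie at 34.5 to 51.1 above the fed libraries at 19.1 to 22.1.

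Between fasted and fed livers 2 of the 13 shared sites differed, 1 higher and 1 lower in fasted livers. The call of the lower one, site 6, depended on the fit, as given below. Over all 37044 shared regions 15.7% differed (7.89% higher and 7.84% lower in fasted livers, limma, Benjamini-Hochberg adjusted p under 0.05). The share in the cluster, 15.4%, is thus near the background. The median log2 fold change was -0.03 over the 13 sites and 0.03 over all regions. Every fold change is in log2 units of density plus 1, taken after subtracting from each library its own median of the shared regions, and understates the change at weak sites. Nuclei of the whole tissue were used, so a site open in more nuclei and a site more open in each nucleus cannot be told apart.

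Site 1 (90853341 to 90854825), the site nearest the low end of the window, rose. It had 51.1, 49.7 and 34.5 in the fasted libraries, against 22.1, 19.1 and 22.0 in the fed libraries. The groups did not overlap. The site averaged 45.1 ± 9.20 in fasted and 21.0 ± 1.68 in fed livers (SD, n = 3 each). On the log2 scale this is a change of 1.12 (SE 0.21, adjusted p = 0.000608, limma). By group mean it ranked 9764 of the shared regions in fasted and 20560 in fed livers.

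The shape of the call at site 1 also differed among libraries. Each fasted library had 1 hotspot there, of 1387, 1485 and 1370 bp. Fed replicate 3, the deepest fed library, had 1 of 1281 bp. Fed replicates 1 and 2 had a pair each, of 535 and 512 bp and of 570 and 615 bp. The taller of each pair gave the value of the site. With average density in place of the maximum, the log2 fold change of site 1 was 0.95 (adjusted p = 0.00291, limma).

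Site 6 (90886113 to 90886806), which ends 2.46 kb before site 7, fell. It had 17.3, 16.0 and 13.9 in the fasted libraries, against 30.2, 22.5 and 27.7 in the fed libraries, again with no overlap. The means were 15.7 ± 1.70 in fasted and 26.8 ± 3.92 in fed livers (SD, n = 3 each). On the log2 scale it changed by -0.65 (SE 0.21, adjusted p = 0.0331, limma). The call ended without fasted replicate 1 (adjusted p = 0.0644, limma), fasted replicate 3 (0.148), fed replicate 1 (0.122) or fed replicate 3 (0.12), fits with 5 libraries. With all 6 libraries it also ended with the replicate block (adjusted p = 0.0589, limma) and with missing values set to the lowest density of the library (0.0622).

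Site 16, alone between the 2 empty stretches, had 32.1, 27.0 and 40.9 in the fasted libraries and 42.3, 53.2 and 49.4 in the fed libraries. Every fasted value lay below every fed value, but the log2 fold change of -0.46 (SE 0.18) did not pass (adjusted p = 0.0892, limma). Site 2 (90859922 to 90860670) had 13.6, 14.2 and 18.5 in the fasted libraries and 21.3, 22.5 and 21.3 in the fed libraries. It likewise had groups apart and a log2 fold change of -0.41 that did not pass (adjusted p = 0.196, limma). On centred values fasted and fed libraries stood apart at 5 of the 13 sites (1, 2, 3, 6 and 16), where 31.4% of all shared regions had no overlap. On densities as deposited it was 4 of the 13 (1, 2, 6 and 16), where 28.1% of all shared regions had none.

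**Figure D3:**
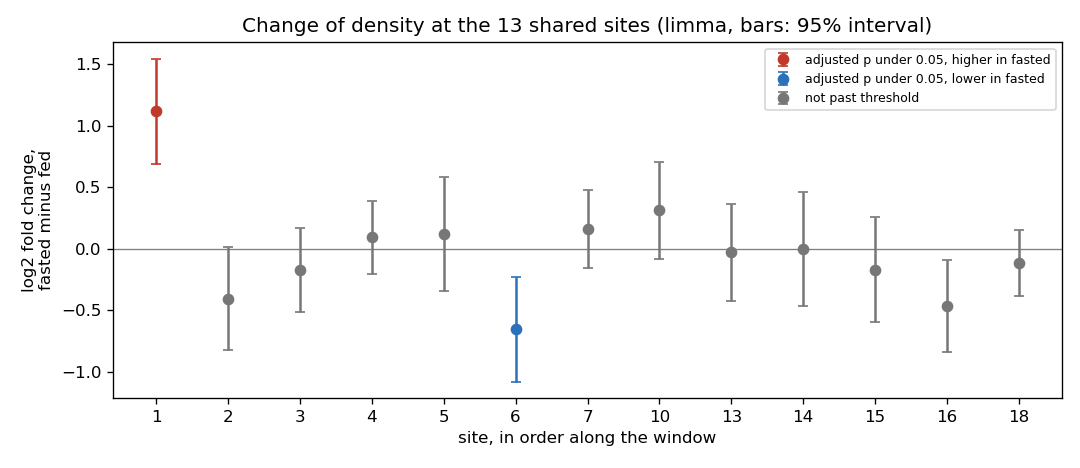
Log2 fold change of density, fasted minus fed, at the 13 shared sites in order along the window; points are limma estimates and bars their 95% intervals. Site 1 (red) lies at 1.12 and site 6 (blue) at -0.65, and the 11 grey sites did not pass the adjusted threshold.

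The remaining sites lay between these. Site 10 had a log2 fold change of 0.31 (95% interval -0.08 to 0.71), and it passed only without fasted replicate 2 (0.53, adjusted p = 0.0348, limma). Site 18 had -0.12 (95% interval -0.39 to 0.15) and site 4 had 0.09 (95% interval -0.20 to 0.39). For sites 3, 5, 13, 14 and 15 the estimates ran from -0.17 to 0.12. The widest of these intervals, for site 5 (90878728 to 90879675), reached from -0.34 to 0.58. The interval that reached lowest, for site 15, ran from -0.60 to 0.26. Changes within these intervals were not resolved at the 2 sites.

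Sites 13 (90902780 to 90903901), 14 (90905494 to 90907395) and 15 (90914484 to 90915166) were alike in level. They averaged 22.2 ± 2.87, 22.1 ± 3.43 and 21.0 ± 5.29 in fasted livers, against 23.8 ± 1.34, 23.6 ± 5.67 and 24.6 ± 3.21 in fed livers (SD, n = 3 each). All 3 were close to the median of all shared regions, 23.7. Their groups overlapped.

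Ratios between sites of 1 library do not depend on how libraries were scaled. The pairs were chosen after the values were seen and are given with no test. Site 1 stood at 2.95, 3.11 and 2.48 times the density of site 6 in the fasted libraries, and at 0.73, 0.85 and 0.79 times in the fed libraries. Site 1 was thus above site 6 in each fasted library and below it in each fed one, with sites 2 to 5 lying between them.

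Set against the strong site 7, site 1 stood at 0.58, 0.61 and 0.25 in the fasted libraries and 0.24, 0.20 and 0.24 in the fed libraries. In fasted replicate 3 the ratio was close to the fed values. There site 7 was at its highest (139) and site 1 at the lowest of its fasted values (34.5). Site 6 over site 7 was 0.19, 0.20 and 0.10 in the fasted and 0.32, 0.23 and 0.30 in the fed libraries. Site 16 over site 7 was 0.36, 0.33 and 0.29 in the fasted and 0.45, 0.55 and 0.54 in the fed libraries.

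**Figure D4:**
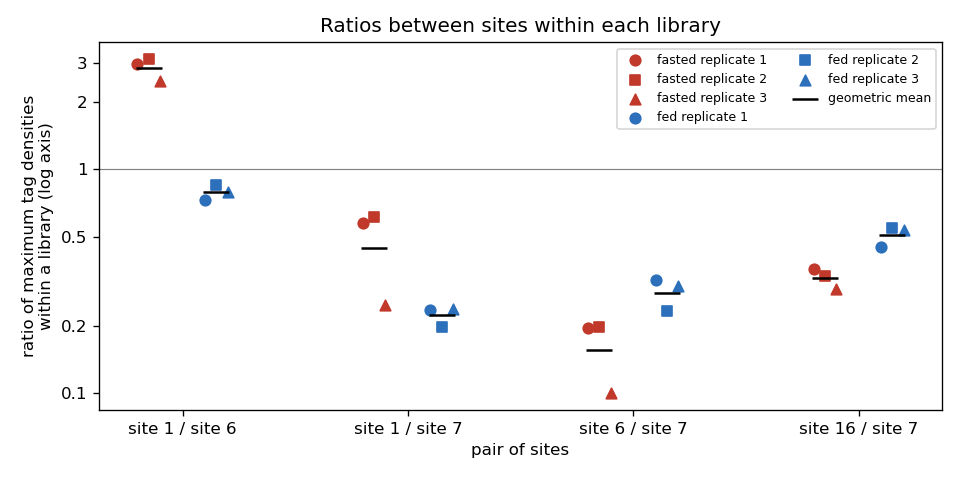
Ratio of the maximum tag densities of pairs of sites within each library (log axis); points are libraries (red, fasted; blue, fed) and black bars geometric means of 3. Site 1 over site 6 lies at 2.48 to 3.11 in fasted and 0.73 to 0.85 in fed libraries, and site 1 over site 7 is nearest to the fed values in fasted replicate 3.

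No site of the cluster was called in all libraries of 1 group and in none of the other. Over all union regions, 1.17% had a call in each fasted library and no fed one, and 1.57% in each fed library and no fasted one. A list holds called hotspots only, so a missing call leaves the density unknown. Site 8 (90891399 to 90894159), the next after site 7, was the nearest to such a pattern. It was called at 15.9, 12.8 and 12.1 in the 3 fasted libraries and at 10.5 in fed replicate 3, the deepest of the fed libraries, and not in fed replicates 1 and 2. These heights are not all from the same place. Fasted replicate 2 had 1 hotspot of 2761 bp across the site, and fasted replicate 1 was called in its higher part only. Fasted replicate 3 had 10.6 in the lower and 12.1 in the higher part, and fed replicate 3 had 10.5 and 9.61.

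Site 17 lacked a call in fed replicate 2 only. It had 13.6, 18.0 and 22.1 in the fasted libraries, against 27.2 and 12.4 in fed replicates 1 and 3, which lie on both sides of the fasted values. Site 9 (90894602 to 90895144) was called at 9.08 in fasted replicate 1 and at 13.0 in fed replicate 3. Sites 11 (90897301 to 90897765) and 12 (90899308 to 90899559) were called only in fasted replicate 2, the deepest library, at 8.29 and 7.30. These sites, 8, 9, 11 and 12, all lie between site 7 and site 13.

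The number of hotspots in the window was 16, 17 and 16 in the fasted libraries and 15, 14 and 17 in the fed libraries. They covered 15.5, 19.7 and 15.0 kb in the fasted libraries, against 13.2, 13.2 and 17.4 kb in the fed libraries. In each group the library with the greatest relative depth, fasted replicate 2 or fed replicate 3, covered the most. The part of depth in these numbers was not tested.

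At the edges of the window, site 1 is the first region inside and the region before it, 90843003 to 90844306, the last outside. That outer region had 141, 131 and 163 in the fasted libraries and 146, 154 and 146 in the fed libraries (log2 fold change 0.03, adjusted p = 0.896, limma). Beyond site 18 the next region, 90996270 to 90998513, had 72.1, 46.8 and 80.8 in the fasted libraries and 84.6, 91.0 and 95.9 in the fed libraries. Its log2 fold change was -0.40 (adjusted p = 0.103, limma). In the window at lower coordinates 0 of 4 shared regions passed (smallest adjusted p = 0.174, limma), with 1 at an unadjusted p under 0.05. In that at higher coordinates 0 of 5 passed (smallest adjusted p = 0.103, limma), with 3 at an unadjusted p under 0.05. The cluster had 3 of 13 at an unadjusted p under 0.05, and the share over all regions was not taken. With 15.7% of all shared regions past the adjusted threshold, 0 of 4 or 0 of 5 does not set these windows apart from the cluster.

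For likeness of pattern, the centred values of site 18 over the 6 libraries were compared with those of 37031 shared regions outside the window. The nearest were on chromosome 18 (70704477 to 70706216, Pearson r = 0.993), chromosome 13 (37947327 to 37948144, r = 0.991) and chromosome 3 (148753541 to 148754187, r = 0.991). With 270 regions (0.729%) above 0.9 on 6 points that share libraries and their depth, this is a description only.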

How the data were processed

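Liver DNase I libraries of 3 fasted and 3 fed samples were analysed. Per the labels' protocols, fragments of 100 to 500 bp from a digestion with DNase at 40 U/ml were purified on sucrose gradients. The submitters' processing notes name CASAVA 1.8 and mm9; the name of an aligner or caller was not given in the sources used here. Maximum and average density are a coverage signal deposited by the authors, 1 list per library, whose scale is not stated. Each hotspot also has a z value, a score that the authors deposited from their caller with no method stated, and a p-value that the authors deposited. Neither entered a comparison.

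Hotspots of chromosomes 1 to 19 and X were merged at 1 bp of overlap. Regions called in all 6 libraries were tested together in R 4.3.3 with limma 3.58.1, using moderated variances with an intensity trend, on the log2 of density plus 1, centred on each library's median, with Benjamini-Hochberg adjustment over 37044 regions and a threshold of 0.05. The fit was tested on simulated data with the same spread at every region and no difference in depth. Such data cannot check the intensity trend or the effect of depth. No count model was used, since densities are heights and not counts per region. The deposited density gives no total of tags; the step between values gave relative depth, and its counting error was not modelled. Between replicates of a group the mean squared z of heights was 2.18 to 5.73, above the 1 of sampling noise, and each library was counted on its own. Tables were made with pandas 2.3.3 and numpy 2.4.6 in Python 3.11.15, and plots with matplotlib 3.10.9.

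Every site is accounted for. Values of each library are given for sites past the threshold, the 5 strongest and those called in 1 group only; sites 2, 8, 9, 11, 12, 16 and 17 were added after their values were seen. The members, lists and tests were chosen with earlier results of these data known. Promoter sequences are from RefSeq (GRCm38.p6; 3 of 3 genes matched). Lists of regulators, plasma proteins and cell type markers, and protein sequences, were not used here, since no annotation of mm9 was at hand. Alternatives were other pseudocounts, centring, variance models, average density, merging, coverage, list lengths and windows, filled missing values, depth, the replicate number and each library left out.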

Additional observations from a re-analysis of the deposited data

How the results depend on the processing

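Site 1 kept its direction and passed in 20 of 20 available alternatives, with log2 fold changes of 0.87 to 1.35 (adjusted p = 7.55e-05 to 0.0139, limma). It was absent from regions with 1 hotspot of each library, where 0 sites were higher. Site 6 kept its direction in 20 of 20 and passed in 14 (log2 fold change -0.76 to -0.46, adjusted p = 0.023 to 0.148, limma). Its change of -0.65 lost the call with missing values at the lowest density (adjusted p = 0.0622, limma), leaving 0 lower sites. Leaving out each library gave -0.76 to -0.52 for site 6 and 0.18 to 0.53 for site 10, with 1 to 2 sites higher and 0 to 1 lower. The number of regions that passed over all regions ran in these fits from 4199 of 37146 (without fed replicate 3) to 5950 of 37255 (without fasted replicate 2). It was 5826 of 37044 as reported. With a library left out, 0 to 1 sites were called in fasted libraries only, the 1 being site 8 without fed replicate 3. In the upper 50% of regions by density, which leaves out site 6, site 16 passed at -0.55 (adjusted p = 0.0442, limma). No site passed in the opposite direction in any alternative. Libraries with the same number showed no shared deviation from their group means (r = -0.07, -0.03 and -0.17 across regions, which are not independent); with the replicate block site 6 had -0.65 (adjusted p = 0.0589, limma), 0 sites were lower and 1 was higher. The difference in the number of hotspots, 1 as reported, ran from 0.33 (without fed replicate 2) to 1.83 (without fed replicate 3). That in covered length, 2117 bp as reported, ran from 635.7 bp (without fasted replicate 2) to 3517 bp (without fed replicate 3). Each stayed within the larger of the group SDs, 1.53 hotspots (fed) and 2577 bp (fasted), of its reported value and kept its sign. The 5 sites that lack calls reached 32 to 91 tags where called, and their densities elsewhere are unknown. Sites 11 and 12 were called only in fasted replicate 2, the deepest library, in which site 9 lacked a call. Site 17 lacked a call only in fed replicate 2, the shallowest library. The part of depth in the missing calls was not tested.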
